A study of Mus musculus with 6 samples.

Results

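The matrix metalloproteinases (MMPs), the ADAMTS proteases and the tissue inhibitors of metalloproteinases (TIMPs) were examined in ectopic endometrial lesions of mice, grown from donor uterine tissue with or without a targeted deletion of the DNA methyltransferase gene Dnmt3a. The members were all genes of the deposited count table whose symbol begins with Mmp, Adamts or Timp followed by a digit. This gave 46 of 56884 genes, 23 of them Mmp, 19 Adamts and 4 Timp. The series holds 6 libraries, 1 for each ectopic lesion, with 3 lesions of control (WT) and 3 of Dnmt3a KO donor tissue. WT lesions grew from uterine tissue of Dnmt3a f/f donors and KO lesions from that of Dnmt3a f/f:PR-Cre/+ donors. In the KO donors, Cre is made in cells that express the progesterone receptor. Donors were 8 weeks old and had received estradiol for 3 days. All recipients were wild-type syngeneic females with an estradiol pellet, so blood-derived and other host cells inside a KO lesion keep Dnmt3a. The WT donors carried no Cre, so an effect of the Cre allele and the loss of Dnmt3a cannot be told apart. The sample labels state fragments injected into the peritoneal cavity and 4 weeks of growth, whereas the methods of the study state fragments sutured to the mesentery and 21 days.

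MMPs are zinc enzymes, secreted or held at the cell surface, that cut collagens, gelatin, proteoglycans and other matrix proteins. Most are made as inactive proenzymes, and TIMPs block the active enzymes by filling their catalytic cleft. ADAMTS proteases are secreted relatives that trim procollagens, cleave large proteoglycans such as versican and aggrecan, or cut other matrix proteins. In the cycling endometrium MMPs take part in tissue breakdown at menstruation, and they have long been studied for a part in the attachment and invasion of endometriotic tissue.

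The libraries held 45370342 to 57239184 counts. Values are given as CPM, counts scaled to a common library total, scaled between libraries by the TMM method. Dnmt3a itself measured 52.7, 43.9 and 51.7 CPM in WT replicates 1 to 3 and 30.3, 33.5 and 36.2 CPM in KO replicates 1 to 3. All KO lesions were below all WT lesions (log2 fold change -0.57, SE 0.14, adjusted p = 0.321, edgeR quasi-likelihood test). Markers of endometrial stroma and epithelium were detected in every lesion, and no marker of these lists was at 0 in all libraries. Several libraries stood apart by markers of other cell types. The summed level of 10 skeletal muscle markers was 29644 CPM in WT replicate 1 and 31680 CPM in WT replicate 3, against 5.54 to 16.2 CPM in the other lesions. WT replicate 3 also held 3254 CPM of 4 pancreas markers, against 6.99 to 16.0 CPM elsewhere, while 4 intestine markers summed to 3.8 CPM there and 0.708 to 1.89 CPM elsewhere. WT replicate 2 held 9739 CPM of 9 neutrophil markers, against 30.5 to 474 CPM in the other 5 lesions. That sum leaves out the listed marker Ltf, a uterine epithelial secretory gene as well, with which the sum was 15739 to 19622 CPM in the WT lesions and 15844 to 33649 CPM in the KO lesions. By group, 7 of 8 T cell markers were lower in KO lesions at the threshold of the study (unadjusted p below 0.05 and log2 fold change beyond 1). Of all genes tested 5.85% were lower and 3.1% higher at this threshold. The T cell markers summed to 36.9 to 99.7 CPM in WT and 8.03 to 27.6 CPM in KO lesions. Of 8 smooth muscle markers 2 were higher. All 8 tested skeletal muscle markers were lower at this threshold, although their sum in WT replicate 2 was below that of every KO lesion. In bulk tissue, fewer cells of a type and less RNA per cell cannot be told apart.

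Of the 10 Mmp genes that lie side by side on chromosome 9, several were among the most uneven members between lesions. Their upstream sequences are shown to set the values of each gene beside a motif that several of them share. A promoter window from the RefSeq table of GRCm38.p6, from 250 bases before to 50 bases after a transcription start, was at hand for 32 of the 46 members. Windows were searched on both strands for TGAGTCA, the binding motif of the AP-1 transcription factors, whose reverse complement is TGACTCA. The motif lay in 7 of 12 windows of the chromosome 9 Mmp genes (58.3%) and in 1709 of all 32851 windows of 300 bases (5.20%). The 7 members that held it, Mmp13, Mmp12, Mmp1b, Mmp3, Mmp1a, Mmp10 and Mmp7, were all in this cluster. The stretches from 100 bases before to 20 bases after the start are printed 5′ to 3′ for 5 of them and for Mmp8, which held no match in its window. Capitals mark the motif as it reads on the gene's strand.
Mmp13, chr9:7272414-7272533, plus strand: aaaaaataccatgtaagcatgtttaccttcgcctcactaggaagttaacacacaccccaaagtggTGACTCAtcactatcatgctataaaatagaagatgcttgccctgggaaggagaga
Mmp3, chr9:7445722-7445841, plus strand: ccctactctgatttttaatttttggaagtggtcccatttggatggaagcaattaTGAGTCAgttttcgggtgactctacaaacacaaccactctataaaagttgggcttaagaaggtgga
Mmp10, chr9:7502242-7502361, plus strand: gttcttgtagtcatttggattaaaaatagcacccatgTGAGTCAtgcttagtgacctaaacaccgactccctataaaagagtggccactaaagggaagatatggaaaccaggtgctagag
Mmp12, chr9:7347274-7347393, plus strand: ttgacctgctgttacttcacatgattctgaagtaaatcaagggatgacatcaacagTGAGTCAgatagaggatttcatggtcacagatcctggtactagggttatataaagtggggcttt
Mmp7, chr9:7691990-7692109, plus strand: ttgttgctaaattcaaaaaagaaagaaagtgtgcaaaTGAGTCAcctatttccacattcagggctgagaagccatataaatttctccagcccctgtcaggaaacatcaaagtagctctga
Mmp8, chr9:7558329-7558448, plus strand: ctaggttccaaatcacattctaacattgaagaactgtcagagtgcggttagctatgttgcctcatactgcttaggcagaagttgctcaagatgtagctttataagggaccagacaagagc
The match began 35 bases before the start in Mmp13, 44 in Mmp12, 46 in Mmp3 and 63 in both Mmp10 and Mmp7. Mmp12 and Mmp7 also had another window, which held no match. For Mmp12 that other window, 7344147 to 7344446, covers the annotated gene start at 7344381, and the printed stretch lies downstream of it. Each match is a description of the letters and not evidence of binding.

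Of the 46 members, 41 passed the filter on low counts and were tested among 18177 genes. Mmp1a and Mmp1b, the mouse interstitial collagenase genes, and Mmp21 had 0 counts in all 6 libraries, which allows up to 0.0524 to 0.0661 CPM per library (3 counts, counting error only). Mmp24 and Adamts13 reached at most 0.119 CPM and were not tested. The threshold used for the members was again the one the study states for its RNA-seq comparison, with an unadjusted p below 0.05 and a log2 fold change larger than 1 in either direction. At this threshold 3 members were lower in KO lesions, Adamts20, Mmp25 and Adamts7, against 5.85% of all genes tested. No member was higher at the threshold, where 3.1% of all genes were. The same 3 members were the only ones with an unadjusted p under 0.05, against 14.7% of all genes. None had an adjusted p under 0.05 in edgeR, where 0.0055% of all genes did, and the adjusted p of members ran from 0.327 to 0.998. limma voom likewise gave no member an adjusted p under 0.05, where 12 of 18177 genes had one, and 11 an unadjusted p under 0.05. DESeq2 gave 2 with an adjusted p under 0.05, Adamts20 (0.0207) and Mmp25 (0.0367), where 1077 of 30336 genes with counts had one. It gave 5 an unadjusted p under 0.05. The share of all genes with an unadjusted p under 0.05 was taken for edgeR only. DESeq2 gave a p for 37 of the 41 members and none for Mmp8, Mmp9, Mmp13 and Timp4, which its counts therefore leave out. The fold change was negative for 25 members and positive for 16, with a median log2 fold change of -0.27 beside 0.01 over all genes. All KO lesions were below all WT lesions in 2 members, against 8.74% of all genes, and above them in no member, against 10.7%.

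**Figure D1:**
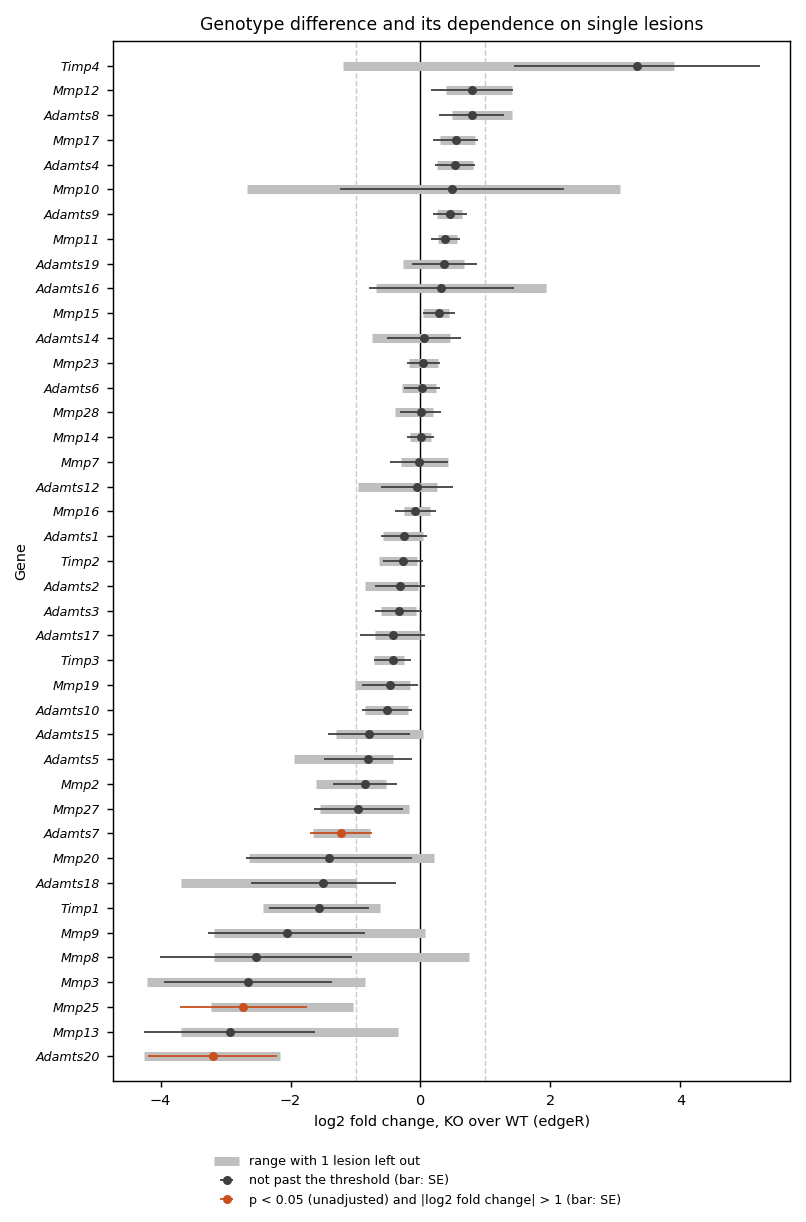
Log2 fold change (KO over WT, edgeR, 3 lesions a group) of the 41 tested members, with its SE as a line and, in grey, the range obtained when each of the 6 lesions was left out in turn. Only Adamts20, Mmp25 and Adamts7 were past the threshold (dashed lines mark a log2 fold change of -1 and 1), and for 17 members the grey range has values on both sides of 0.

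Adamts20, a versican-cleaving protease known from the patterning of coat pigment, had the lowest fold change of all members. It is annotated on chromosome 15 from 94270163 to 94465418, minus strand (GENCODE M21, GRCm38). It measured 3.76, 0.540 and 1.26 CPM in WT lesions and 0.0702, 0.119 and 0.417 CPM in the KO lesions. All KO lesions were below all WT lesions, and the KO values rested on 4, 6 and 20 counts. Adamts20 was 9.16-fold lower in KO lesions (log2 fold change -3.20, SE 0.99, unadjusted p = 0.0180, exact permutation p = 0.1, adjusted p = 0.327, edgeR). The exact permutation test was two-sided, and 3 against 3 lesions cannot give less than 0.1. The fold change stayed between -4.26 and -2.16 whichever lesion was left out, but the gene did not pass the threshold without WT replicate 1, KO replicate 1 or KO replicate 2. WT replicates 1 and 3, the higher WT lesions, were those with skeletal muscle markers, whose part in this result was not tested.

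Mmp25, a membrane-anchored MMP also called leukolysin and known from neutrophils, is annotated on chromosome 17 from 23628311 to 23645277, minus strand. It measured 5.47, 32.7 and 3.03 CPM in WT lesions and 2.21, 1.15 and 2.85 CPM in the KO lesions. The groups did not overlap, yet the highest KO lesion lay just below the lowest WT lesion, and WT replicate 2 was 5.98-fold above the next lesion. Its log2 fold change of -2.73 (SE 0.98, unadjusted p = 0.0314, exact permutation p = 0.1, adjusted p = 0.328, edgeR) became -1.03 without WT replicate 2, where it no longer passed the threshold. With KO replicate 1, 2 or 3 left out the call was also lost, at log2 fold changes of -2.78, -2.43 and -3.02. The neutrophil marker sum was highest in the same WT lesion.

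Adamts7, which cleaves cartilage oligomeric matrix protein (COMP), is annotated on chromosome 9 from 90163069 to 90208071, plus strand. It measured 10.8, 19.2 and 7.56 CPM in WT lesions and 4.67, 3.30 and 8.11 CPM in the KO lesions. KO replicate 3 was above WT replicate 3, so the groups overlapped. Its log2 fold change was -1.23 (SE 0.48, unadjusted p = 0.0419, exact permutation p = 0.2, adjusted p = 0.332, edgeR), and -0.78 without WT replicate 2. The call was also lost without WT replicate 1, KO replicate 1 or KO replicate 2, at log2 fold changes of -1.32, -1.13 and -0.97. Exons of Adamts7 overlap exons of Tbc1d2b on the opposite strand, and the strand setting used in counting is not given in the sources used here, so reads of the pair may be mixed.

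Among the secreted MMPs, Mmp8, Mmp9, Mmp13 and Mmp3 were far higher in WT replicate 2 than in any other lesion. Mmp8, the collagenase stored in neutrophil granules, measured 7.39, 139 and 2.86 CPM in the WT lesions and 4.00, 6.97 and 14.9 CPM in the KO lesions. WT replicate 2 was 9.34-fold above the next lesion, and the other WT lesions lay among or below the KO lesions. The log2 fold change was -2.53 (SE 1.47, adjusted p = 0.430, edgeR), and 0.75 without WT replicate 2. Mmp9, gelatinase B, which cuts denatured collagen and is also carried by neutrophils, measured 19.0, 186 and 14.7 CPM in the WT lesions and 10.1, 6.08 and 36.7 CPM in the KO lesions. WT replicate 2 was again far above the rest, and KO replicate 3 came next. Its log2 fold change of -2.06 (SE 1.21, adjusted p = 0.433, edgeR) became 0.07 without WT replicate 2.

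Mmp13, collagenase-3, measured 1.96, 41.5 and 3.18 CPM in the WT lesions and 0.912, 1.51 and 3.67 CPM in the KO lesions. Mmp3, stromelysin-1, which cuts proteoglycans and activates other proMMPs, measured 13.9, 217 and 37.0 CPM in the WT lesions and 4.35, 5.24 and 32.9 CPM in the KO lesions. In both genes WT replicate 2 was high, 11.3-fold and 5.85-fold above the next lesion, and KO replicates 1 and 2 were the lowest. The log2 fold changes were -2.94 (SE 1.31) for Mmp13 and -2.66 (SE 1.29) for Mmp3 in edgeR, with adjusted p-values of 0.355 and 0.371. Without WT replicate 2, Mmp13 stood at -0.34 and Mmp3 at -0.85. Without WT replicate 1, both passed the threshold (-3.46 and -3.16), as did Mmp13 without WT replicate 3 (-3.43) and Mmp3 without KO replicate 3 (-4.21). Mmp10, stromelysin-2, was high in WT replicate 2 and in KO replicate 3 instead. It measured 0.0854, 4.50 and 0.470 CPM in the WT lesions and 0.246, 0.278 and 6.56 CPM in the KO lesions, and its log2 fold change ran from -2.67 to 3.08 as single lesions were left out. Mmp11, stromelysin-3, known from stroma around epithelium, did not pass the test, with 37.7, 30.7 and 41.0 CPM in the WT lesions and 54.0, 34.9 and 53.7 CPM in the KO lesions.

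In the chromosome 9 cluster, which spans 427 kb, 8 genes had counts and 4 of them, Mmp13, Mmp3, Mmp8 and Mmp27, were highest in WT replicate 2. Mmp8 and Mmp27 held no AP-1 match in their windows. Mmp12, the macrophage metalloelastase, which does hold one, was lowest in WT replicate 2, at 148, 31.7 and 83.2 CPM in the WT lesions and 169, 71.9 and 216 CPM in the KO lesions. Its groups overlapped (log2 fold change 0.79, SE 0.63, adjusted p = 0.552, edgeR). The 10 macrophage markers summed to 2328, 6467 and 2773 CPM in the WT lesions and 2008, 1560 and 3323 CPM in the KO lesions, so the lesion with the highest macrophage marker sum had the lowest Mmp12. Mmp7, matrilysin, an enzyme of glandular epithelium, measured 200, 295 and 542 CPM in the WT lesions and 452, 354 and 212 CPM in the KO lesions. The KO range lay within the WT range (log2 fold change -0.03, SE 0.45, adjusted p = 0.981, edgeR). Mmp20, enamelysin, known from tooth enamel, reached 2.29 CPM only in WT replicate 3 and 0.0397 to 0.792 CPM in the others.

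**Figure D2:**
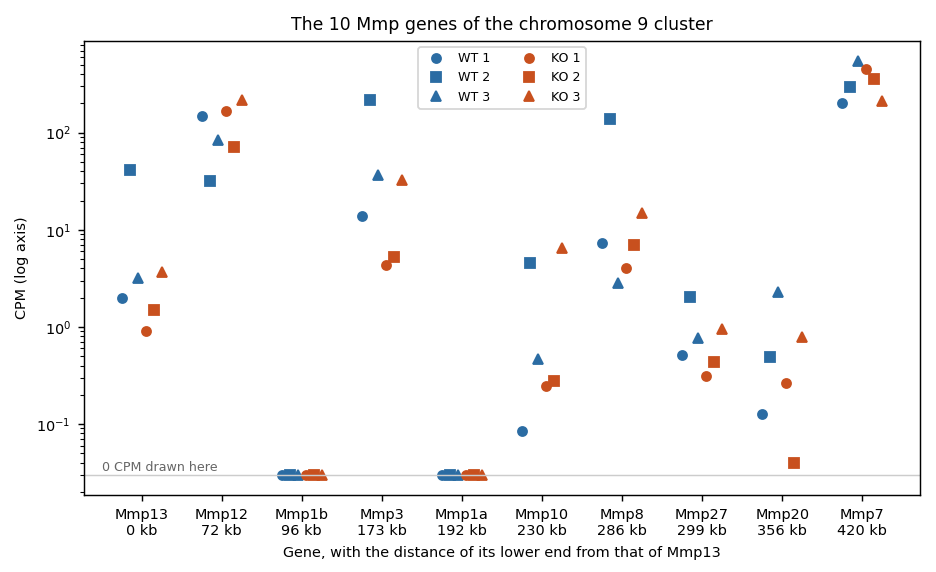
CPM (log axis) of the 10 Mmp genes of the chromosome 9 cluster in each lesion, in chromosomal order, with distances in kb along the horizontal axis. WT replicate 2 (blue squares) stands above all other lesions in Mmp13, Mmp3, Mmp8 and Mmp27 but below them in Mmp12, and Mmp1a and Mmp1b were at 0.

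Neutrophil markers moved with WT replicate 2. S100a8 and S100a9, calcium-binding proteins abundant in neutrophils, measured 3406 and 5263 CPM there, against 2.74 to 169 CPM and 2.38 to 240 CPM in the other lesions. Of the 10 neutrophil markers 9 were tested and 4 were lower in KO lesions at the threshold, against 5.85% of all genes. Their part in the levels of Mmp8, Mmp9 and Mmp25 was not tested. Over the members, 13 of 41 were highest in WT replicate 2, where 24.2% of all tested genes were. In 8 members (19.5%) WT replicate 2 was at least 2-fold above the next lesion, against 5.93% of all genes. Besides the genes above these were Timp1, Mmp27 and Adamts15.

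**Figure D3:**
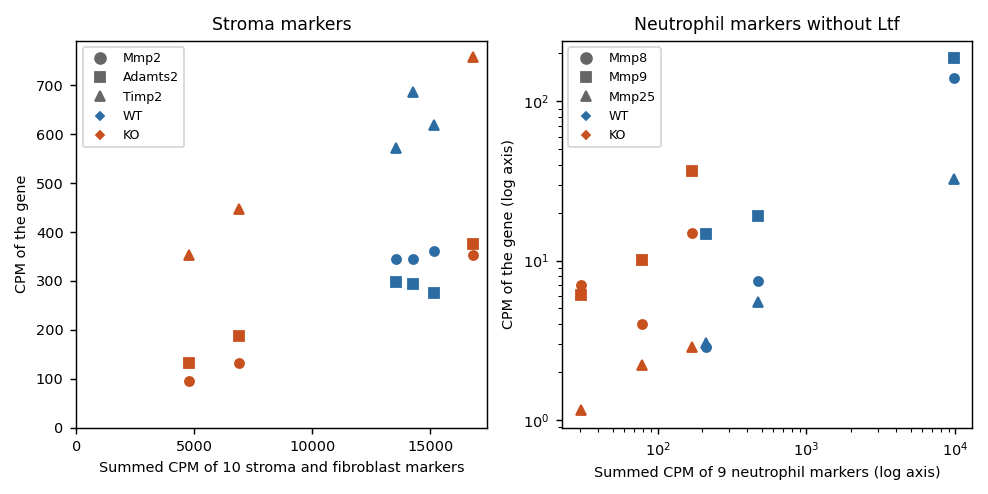
Left, CPM of Mmp2, Adamts2 and Timp2 against the summed CPM of 10 stroma and fibroblast markers. Right, CPM of Mmp8, Mmp9 and Mmp25 against the summed CPM of 9 neutrophil markers without Ltf, both axes log. Each point is 1 gene in 1 of 6 lesions (blue WT, orange KO), and KO replicate 3 lies with the WT lesions on the left at 16796 CPM, while WT replicate 2 lies alone on the right at 9739 CPM.

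A second set of members was split by KO replicate 3. Mmp2, gelatinase A, the main gelatinase of fibroblasts and stroma, measured 345, 361 and 346 CPM in the WT lesions and 133, 95.8 and 353 CPM in the KO lesions. KO replicates 1 and 2 were far below the narrow WT range, and KO replicate 3 was inside it. The means were 351 ± 9.38 CPM in the WT lesions and 194 ± 139 CPM in the KO lesions (SD, n = 3 each). Here the log2 fold change was -0.85 (SE 0.49, adjusted p = 0.425, edgeR), and -1.61 without KO replicate 3 (adjusted p = 0.112), past the threshold. Mmp19, a broad-specificity MMP, measured 110, 80.5 and 61.6 CPM in the WT lesions and 50.9, 32.7 and 98.1 CPM in the KO lesions, with the same split. Its log2 fold change was -0.47 (SE 0.44), and -1.0 without KO replicate 3.

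Among the proteoglycan-cleaving ADAMTS genes, Adamts5, an aggrecanase, had this pattern most clearly. It measured 76.6, 106 and 56.5 CPM in the WT lesions and 18.8, 22.5 and 95.8 CPM in the KO lesions. KO replicates 1 and 2 were below every WT lesion, and KO replicate 3 was above all but WT replicate 2. The log2 fold change was -0.80 (SE 0.67, adjusted p = 0.570, edgeR) and -1.95 without KO replicate 3 (adjusted p = 0.113), past the threshold. Adamts15, which cleaves versican, measured 21, 91.9 and 34.0 CPM in the WT lesions and 22.1, 17.5 and 45.4 CPM in the KO lesions, and followed WT replicate 2 instead. Adamts1, induced by progesterone in the ovary, and Adamts4, another aggrecanase, overlapped between groups. Adamts1 measured 68.9, 49.6 and 64.2 CPM in the WT lesions and 54.0, 27.7 and 71.3 CPM in the KO lesions. Adamts4 measured 47.3, 53.1 and 86.0 CPM in the WT lesions and 121, 72.6 and 75.6 CPM in the KO lesions. Adamts9, a further versicanase, measured 38.0, 56.0 and 54.2 CPM in the WT lesions and 85.0, 69.1 and 48.7 CPM in the KO lesions. Adamts8 measured 6.19, 1.94 and 2.82 CPM in the WT lesions and 8.0, 4.25 and 6.63 CPM in the KO lesions, and its log2 fold change of 0.79 (SE 0.50) passed the threshold only without WT replicate 1 (1.40). Of the 7 hyalectanase genes 4 had negative and 3 positive fold changes, and Adamts20 alone was called.

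The procollagen N-proteinases remove the amino-terminal propeptide of fibrillar procollagens. Adamts2, the enzyme of procollagens I and III, measured 293, 276 and 297 CPM in the WT lesions and 187, 132 and 375 CPM in the KO lesions. KO replicates 1 and 2 were below and KO replicate 3 above all WT lesions, with a log2 fold change of -0.32 (SE 0.39) that became -0.85 without KO replicate 3. Adamts14 had the same order at 4.4, 5.09 and 4.51 CPM in the WT lesions and 3.75, 1.79 and 8.96 CPM in the KO lesions. Adamts3 measured 13.4, 10.7 and 6.19 CPM in the WT lesions and 7.30, 5.98 and 10.8 CPM in the KO lesions. Adamts12, the other COMP-cleaving member, measured 34.2, 46.1 and 47.9 CPM in the WT lesions and 22.4, 21.4 and 79.8 CPM in the KO lesions. KO lesions 1 and 2 were again lowest and KO replicate 3 highest (log2 fold change -0.05, SE 0.55, and -0.96 without KO replicate 3). Adamts18 measured 1.75, 2.07 and 0.555 CPM in the WT lesions and 0.140, 0.0795 and 1.33 CPM in the KO lesions (log2 fold change -1.50, SE 1.12), and its log2 fold change was -3.69 without KO replicate 3. The remaining members of the family, Adamts6, Adamts10, Adamts16, Adamts17 and Adamts19, had adjusted p-values from 0.519 to 0.977 (edgeR).

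In 18 of 41 members (43.9%) KO replicates 1 and 2 were below all WT lesions and KO replicate 3 was not, against 13.7% of all genes tested. KO replicate 3 was the highest lesion in 12 members, against 12.8% of all genes, and the lowest in none, against 11.5%. KO replicate 2 was the lowest in 19, where 20.2% of all genes were. The 10 stroma and fibroblast markers summed to 14285, 15167 and 13567 CPM in the WT lesions and 6888, 4769 and 16796 CPM in the KO lesions, and as for Mmp2 the lowest values were those of KO replicates 1 and 2. Within that list 8 of 10 markers had negative fold changes with none called. Hoxa11 and Hand2, transcription factors of uterine stroma, were higher in KO lesions at the threshold (1.05 and 1.02, SE 0.31 and 0.26), as were 3.1% of all genes. The summed epithelial markers went the other way, with 20997, 11610 and 18220 CPM in the WT lesions and 37214, 28679 and 17462 CPM in the KO lesions. Most of that sum was Ltf, at 9882 to 19058 CPM in the WT and 15673 to 33570 CPM in the KO lesions. Of the 10 epithelial markers 1, Krt19, had a negative fold change, and none was called. Endothelium markers had the split of KO replicate 3 too, at 480, 563 and 476 CPM in the WT lesions and 325, 224 and 606 CPM in the KO lesions. The macrophage sums given above were lowest in KO replicates 1 and 2 as well, and the adipocyte sum was highest in KO replicate 3, at 6114 CPM against 856 to 4177 CPM. The part of stroma, endothelium, macrophage and adipocyte content in the levels of Mmp2, Adamts2, Adamts5 and the TIMPs was not tested.

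**Figure D4:**
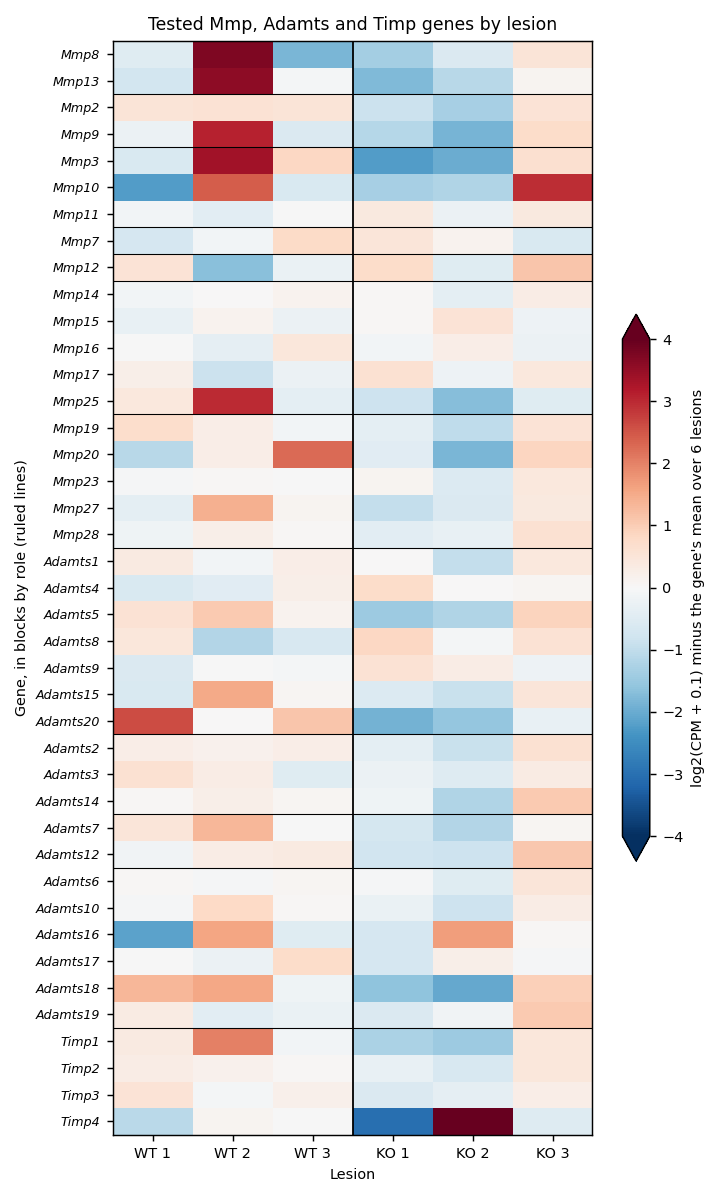
Levels of the 41 tested members in each lesion, as log2(CPM + 0.1) minus the gene's mean over the 6 lesions, in blocks by role. WT replicate 2 holds the highest values of Mmp8, Mmp13, Mmp9, Mmp3, Mmp25 and Timp1, and KO replicates 1 and 2 are below the WT lesions in Mmp2, Adamts5, Adamts7, Timp1, Timp2 and Timp3, where KO replicate 3 is not.

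Of the TIMP genes Timp1 had both patterns, and Timp2 and Timp3 only that of KO replicate 3. Timp1, an inhibitor induced by cytokines and growth factors, is annotated on chromosome X from 20870166 to 20874735, plus strand. It measured 36.4, 117 and 26.4 CPM in the WT lesions and 11.9, 10.4 and 38.7 CPM in the KO lesions. WT replicate 2 was 3.02-fold above the next lesion, KO replicate 3, and KO replicates 1 and 2 were lowest. Timp1 had a log2 fold change of -1.56 (SE 0.77, adjusted p = 0.377, edgeR). It was -0.62 without WT replicate 2, and -2.42 without KO replicate 3, past the threshold. Timp2, which both inhibits MMPs and helps Mmp14 to activate proMmp2, measured 686, 620 and 572 CPM in the WT lesions and 447, 353 and 758 CPM in the KO lesions (log2 fold change -0.27, SE 0.31). Timp3, the matrix-bound inhibitor that also blocks ADAMTS enzymes, measured 373, 241 and 294 CPM in the WT lesions and 170, 200 and 305 CPM in the KO lesions (log2 fold change -0.43, SE 0.28). For both, KO replicates 1 and 2 lay below all WT lesions and KO replicate 3 did not.

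Timp4, a tissue-restricted inhibitor, had the largest positive fold change of the members and rested on 1 lesion. It measured 0.555, 1.40 and 1.28 CPM in the WT lesions and 0.0702, 31.5 and 0.875 CPM in the KO lesions. KO replicate 2 was 22.6-fold above the next lesion, and KO replicate 1 was the lowest of all with 4 counts. A log2 fold change of 3.33 (SE 1.89, adjusted p = 0.422, edgeR) became -1.19 without KO replicate 2, and the gene passed the threshold without KO replicate 1 (3.90). The 7 adipocyte markers summed to 1390 CPM in KO replicate 2, within the range of the other lesions (856 to 6114 CPM). The sum of the 6 mesothelium markers was highest there, at 809 CPM against 411 to 763 CPM. Krt19, also an epithelial marker, gave 510 CPM of it. Among them Wt1 was highest there, at 62.8 CPM against 12.7 to 26.8 CPM, and Lrrn4 only just, at 40.1 CPM against at most 39.3 CPM. Msln, Upk3b, Upk1b and Krt19 were instead highest in WT lesions. Esr2, estrogen receptor beta, measured 3.22 CPM in KO replicate 2 and 0.0854 to 0.208 CPM in the others. Their part in the level of Timp4 was not tested. Exons of Timp4 overlap those of Syn2 on the opposite strand.

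Of the 5 tested membrane-type MMPs Mmp25 alone passed the test. Mmp14, MT1-MMP, a collagenase at the cell surface and an activator of proMmp2, measured 309, 338 and 372 CPM in the WT lesions and 350, 258 and 412 CPM in the KO lesions. The groups had means of 340 ± 31.8 and 340 ± 77.2 CPM (SD, n = 3 each), with a log2 fold change of 0.00 (SE 0.21). Mmp15 measured 13.5, 18.5 and 14.2 CPM in the WT lesions and 17.3, 24.6 and 14.3 CPM in the KO lesions, and Mmp17 20.4, 9.45 and 14.8 CPM in the WT lesions and 26.6, 15.1 and 23.2 CPM in the KO lesions. Their log2 fold changes were 0.28 (SE 0.25) and 0.54 (SE 0.34). Mmp16 stayed between 1.80 and 3.20 CPM in all lesions. Mmp23 and Mmp28, less studied members, had log2 fold changes of 0.05 (SE 0.25) and 0.00 (SE 0.32).

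Levels of different genes were compared per exon length, as RPKM, which is CPM divided by kilobases of exon. Averaged over the 6 lesions, Mmp7 had the highest RPKM of the MMPs at 321, or 53.4% of the Mmp total, followed by Mmp2 at 80.8 and Mmp14 at 57.0. By lesion, Mmp14 was above Mmp2 in KO replicate 1 (58.8 and 39.5 RPKM) and KO replicate 2 (43.3 and 28.4 RPKM), and Mmp3 above Mmp2 in WT replicate 2 (120 and 107 RPKM). Timp2 at 147 RPKM held 65.2% of the Timp total, and Adamts2 at 27.9 RPKM had the highest mean of the Adamts genes. Adamts4 was above Adamts2 in KO replicate 1 (25.2 and 20.1 RPKM) and KO replicate 2 (15.1 and 14.1 RPKM). The summed Mmp RPKM was 453, 764 and 774 in the WT lesions and 619, 467 and 529 in the KO lesions. The summed Timp RPKM was 263, 321 and 213 in the WT lesions and 149, 132 and 276 in the KO lesions. The ratio of the sums, Mmp over Timp, was 1.72, 2.38 and 3.64 in the WT lesions and 4.15, 3.53 and 1.92 in the KO lesions, so the groups overlapped. These sums are of RNA and say nothing of active enzyme.

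By the rule that leaving out 1 lesion turned the sign, moved the log2 fold change by at least 1 or moved the unadjusted p across 0.05, 34 of 41 members rested on at least 1 lesion, and in 17 the sign turned. KO replicate 3 was such a lesion for 24 members and WT replicate 2 for 12. No share of all genes was taken for this rule, so the counts describe the members only. They include members with a fold change near 0, such as Mmp14 and Mmp28, whose sign turned with any of several lesions left out. Without KO replicate 3, 8 members were lower at the threshold, where 1650 of all 19048 genes tested were. These were Adamts20, Adamts7, Mmp2, Mmp3, Mmp19, Adamts5, Adamts18 and Timp1. Without WT replicate 2 only Adamts20 was lower, where 1108 of 18923 genes were. No member was lower without KO replicate 1 (551 of 19002 genes) or without KO replicate 2 (658 of 18925 genes).

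Genes that act with the members were taken from lists of their pathways. In the plasminogen system, whose protease plasmin activates several proMMPs, 2 of 6 tested genes were lower in KO lesions at the threshold (5.85% of all genes) and 3 had an unadjusted p under 0.05 (14.7% of all genes). Plaur, the urokinase receptor, measured 25.6, 201 and 34.0 CPM in the WT lesions and 9.44, 6.56 and 18.6 CPM in the KO lesions (log2 fold change -2.91, SE 0.93, adjusted p = 0.328, edgeR). Serpinb2, an inhibitor of plasminogen activators, measured 2.26, 56.9 and 1.54 CPM in the WT lesions and 0.491, 0.516 and 1.29 CPM in the KO lesions (-4.72, SE 1.61). Plat, tissue plasminogen activator, was lower by less than the fold threshold (-0.82, SE 0.32). In these 3 genes, named for their p, every KO lesion was below every WT lesion (8.74% of all genes), and WT replicate 2 was the highest lesion. Of 9 tested genes for other activators and inhibitors, Prss8, prostasin, was higher (1.76, SE 0.59) at 13.7, 7.92 and 10.8 CPM in the WT lesions and 45.9, 53.2 and 11 CPM in the KO lesions. Of 6 ADAMTS-like genes, which lack the protease domain, Adamtsl4 and Adamtsl5 were lower (-1.65, SE 0.43, and -1.62, SE 0.57).

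Among 18 tested inducers and repressors of MMP genes, 6 were lower (5.85% of all genes) and 1 was higher (3.1%) at the threshold, with a median log2 fold change of -0.97. The lower genes were the cytokines Il1a and Il1b and the AP-1 subunits Fos, Fosb, Fosl1 and Junb. WT replicate 2 stood far above the other lesions in Il1a (328 against at most 58.5 CPM), Fosl1 (9.86 against at most 1.62 CPM) and Junb (234 against at most 61.9 CPM). Fos measured 47.8, 91.5 and 66.7 CPM in the WT lesions and 31.6, 28.8 and 29.8 CPM in the KO lesions (log2 fold change -1.19, SE 0.25, adjusted p = 0.321, edgeR). Il1b measured 82.4, 2165 and 46.6 CPM in the WT lesions and 9.98, 1.55 and 47.2 CPM in the KO lesions, with WT replicate 2 far above all others and the groups overlapping. The gene that was higher was Esr1, estrogen receptor alpha (1.13, SE 0.39). Of 20 matrix substrates of these enzymes, the brain proteoglycan Bcan was higher (2.32, SE 0.69) at 0.0450 to 1.12 CPM, none was lower at the threshold, and the median log2 fold change was -0.47. Of 9 shedding ADAMs, Adam33 was higher (1.91, SE 0.71), and Adam28 was lower by less than the fold threshold (-0.89, SE 0.24). Of 8 tested other matrix-degrading proteases, Mcpt4, a mast cell chymase, was lower (-2.51, SE 0.50), and Ctsb, cathepsin B, was higher by less than the fold threshold (0.88, SE 0.31).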

How the data were processed

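RNA-seq of 3 WT and 3 Dnmt3a KO ectopic lesions (TruSeq Stranded mRNA libraries) was re-analysed. The deposited values are raw read counts per gene, which the authors made on the Galaxy platform, per the study's methods. The submitters' processing notes name Trimmomatic, featureCounts and DESeq2. The methods state GRCm38 and the notes GRCm39. The aligner, the annotation release and the strand setting are not given in the sources used here. Symbols, coordinates and exon lengths came from GENCODE M21 (GRCm38), which matched 51948 of 56884 identifiers. The others held 3.04% to 3.56% of the counts. Among genes with 1 to 19 counts, 88.9% to 90.4% of the counts in each library were even numbers, so counting error may be larger than the counts imply. The cause was not tested.

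Counts were filtered (filterByExpr), scaled by TMM and fitted by genotype with the edgeR 4.0.16 quasi-likelihood test in R 4.3.3, over the whole table and with Benjamini-Hochberg adjustment over all 18177 genes tested. The SE is the absolute log2 fold change over the root of F. The script was tested on simulated data. CPM are TMM-scaled, and RPKM divide these by exon length. Single values were also tested by exact two-sided permutation (scipy 1.17.1), which cannot go below 0.1 for 3 against 3. Totals of 45370342 to 57239184 counts give precise values above a few CPM and weak ones near the floor of 3 counts. Alternatives were other scalings and filters, DESeq2 1.42.0, limma 3.58.1 (voom with quality weights), a replicate block, each lesion left out, and halved counts, the last chosen after seeing the data. The neutrophil marker sum without Ltf and the separate pancreas and intestine sums were also chosen after seeing the data.

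Members with a mean of at least 1 CPM in either group could be named with the value in each lesion and the others by ranges. All members with an unadjusted p under 0.05 were named, as could be such genes of the pathway lists. Adamts13, Adamts17, Mmp20, Mmp24, Mmp1a, Mmp1b and Mmp21 fall under that mean and were named to account for every member, and the marker genes and Esr2 were chosen after their values were seen. Members and lists were chosen with earlier results of these data known. The methods give 3 donors a group but do not tie each lesion to its own donor, so p-values measure the spread between these lesions. Other results of the series were not analysed here.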

Additional observations from a re-analysis of the deposited data

How the results depend on the processing

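The number of members lower in KO lesions at the threshold was 3 in the analysis reported. It was 5 with DESeq2 (1839 of 30336 genes), which added Timp1 and Mmp3 and gave no p for Mmp8, Mmp9, Mmp13 and Timp4. It was 7 with limma voom and quality weights (1523 of 18177 genes), with Mmp25 not called and Timp1, Adamts5, Mmp2, Mmp3 and Adamts18 added. Over the lesions left out in turn it ran from 0 to 8, the number higher ran from 0 to 1, and the median log2 fold change ran from -0.71 (without KO replicate 3) to -0.012 (without WT replicate 3). Members with an adjusted p under 0.05 numbered 0, and 2 with DESeq2. The other scalings and filters and the halved counts gave 2 to 4 members lower and none higher or with an adjusted p under 0.05. Upper quartile scaling moved the median of all genes to 0.11 and gave 907 lower and 716 higher genes, against 1064 and 564. Over all genes, 1652 were lower without the filter, 1839 with DESeq2, 1650 with KO replicate 3 left out, 551 with KO replicate 1 left out and 658 with KO replicate 2 left out. DESeq2 gave 1077 genes an adjusted p under 0.05, limma voom 12 and edgeR without WT replicate 2 398, against 1. Higher genes numbered 855 with limma voom, 1021 with KO replicate 3 left out and 280 with KO replicate 2 left out.

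WT and KO lesions share replicate numbers, but the labels tie them to no litter or day, and the deviations of same-numbered lesions correlated at 0.03, -0.15 and -0.20, with no lesion correlating best with its own number. With the replicate number as a block, 1 member was lower, Adamts20, and 573 genes were lower and 372 higher in all. No lesion number was treated as a pair. Depth limits the members under 1 CPM, such as Adamts20 in KO lesions, and 3 lesions a group limit the rest.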

Other observations

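Outside the chromosome 9 cluster, 2 pairs of Adamts genes lie within 200 kb of each other, and their levels differed by lesion. Adamts1 and Adamts5, 53.1 kb apart on chromosome 16 and on the same strand, are a pair in which Adamts1 measured 54.0 and 27.7 CPM in KO replicates 1 and 2 against 49.6 to 68.9 CPM in WT lesions, while Adamts5 measured 18.8 and 22.5 CPM against 56.5 to 106 CPM. Adamts15 and Adamts8, 20.1 kb apart on chromosome 9 and on opposite strands, had their extremes in the same lesion. In WT replicate 2 Adamts15 was at its highest, 91.9 CPM, and Adamts8 at its lowest, 1.94 CPM. These pairs were chosen after their values were seen, and no test was made.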
